A study of Homo sapiens with 50 samples.

Results

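The hairpins described here are the 13 short hairpin RNAs (shRNAs) of a pooled screen that target EP300 or CREBBP, out of 3443 in the deposited table. They were chosen by name: the table's gene column reads exactly EP300 for 8 of them and exactly CREBBP for 5, and 0 further rows name either gene together with another. EP300 encodes the acetyltransferase p300 and CREBBP its paralog CBP, the binding protein of the transcription factor CREB.

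p300 and CBP are large coactivators that transcription factors bring to enhancers and promoters. Their acetyltransferase domain acetylates histone tails, among them lysine 27 of histone H3, the modification used to mark active enhancers, and their bromodomain binds acetylated lysines. Fibroblasts in culture stop dividing after a limited number of doublings, a state called replicative senescence, in which many enhancers and genes are rewired; both genes were screened for a part in reaching it.

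All groups were IMR90 cells, a line of normal human lung fibroblasts with a limited number of divisions, kept at 3% oxygen and infected with lentiviral hairpins at a multiplicity of infection of 0.3. Hairpins against chromatin regulators were split at random into 5 starting pools, each with added control hairpins, lamin B1 and non-targeting ones among them, and the pools were joined in pairs into 10 paired pools, 1 plate each. Every hairpin of a starting pool was therefore carried on 4 of the 10 plates. Genomic DNA was taken at population doublings (PD) 40, when the cells were proliferating, 45, 50, 55 and 60, when they were senescent, and the integrated hairpins were amplified and sequenced. The screen was built to find genes whose loss prolongs lifespan, since cells with such a hairpin should make up more of the culture at later doublings.

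The table has 1 column of tag counts per doubling, so there was 1 value per time with no replicate. No test was run, and no value below measures the spread between plates or cultures. The columns held 8270745 to 11505688 tags. Levels are given as tags and as CPM, the usual scaling of tags to the total of their column. Ratios are ratios of CPM and carry exact 95% Poisson intervals. Hairpins of 1 gene are different reagents, not replicates, and how far each lowered its target was not analysed here. The levels of the hairpins in the plasmid or virus pools, before infection, were not used here either. Across the library the median hairpin had 1019 tags at PD40 and 1 tag at PD60, so a hairpin that kept its share stood far above most others.

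EP300 hairpins were the most abundant of any gene at the start. TRCN0000009883, with 123277 tags, and TRCN0000009884, with 88949, ranked 1 and 2 of 3443 hairpins at PD40. Of the 8 EP300 hairpins 6 had more tags than the library median at PD40, over a range from 895 to 123277. For CREBBP it was 1 of 5, over a range from 84 to 4167 tags, and the ranges of both genes overlapped. Summed over its hairpins, EP300 held 2.80% of all tags at PD40, the highest share among 631 genes with at least 3 hairpins, and CREBBP 0.0611%, at rank 383.

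TRCN0000009884 was the EP300 hairpin with the most tags at the end of the culture. From PD40 to PD60 it had 88949, 124367, 101992, 120137 and 291065 tags. In CPM these were 10310, 14160, 12030, 10440 and 35190, so its level was close to flat over the first 4 times and highest in the last. Its rank in the library went from 2 to 7, 16 and 21, and back to 7 at PD60. The ratio to PD40 was 1.37 (1.36 to 1.39) at PD45, 1.17 (1.16 to 1.18) at PD50 and 1.01 (1.00 to 1.02) at PD55, and reached 3.41 (3.39 to 3.44) at PD60. The last interval alone, PD60 over PD55, gave 3.37 (3.35 to 3.39). Against the whole library a flat share was already unusual: at PD55 its log2 change of 0.02 exceeded that of 95.1% of hairpins. It was less so among the 50 most abundant hairpins at PD40. At PD55, 7 of these were over 2-fold higher than at PD40, 31 over 2-fold lower and the rest within 2-fold.

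TRCN0000009882 had another time course. It had 6163, 11498, 53944, 130397 and 19167 tags at the 5 times. At PD45 it was 1.83-fold above PD40 (1.78 to 1.89), at PD50 8.90-fold (8.67 to 9.14) and at PD55 15.9-fold (15.5 to 16.3). It thus climbed from rank 280 of the library to rank 19 and at PD55 was the most abundant EP300 hairpin. In the last interval it was 4.89-fold lower (4.82 to 4.97), which left it at rank 50 and 3.24-fold (3.15 to 3.34) above its PD40 level. Both hairpins ended over 3-fold above PD40, but the first was highest at PD60 and the second at PD55.

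TRCN0000009883, at rank 1 to begin with, ended low. Its tags were 123277, 230115, 120345, 37563 and 2944 in the order of the doublings. The PD45 level was 1.83-fold above PD40 (1.82 to 1.85), and it ranked 2 of all hairpins there. The PD50 level was 0.993 of the PD40 level (0.985 to 1.00), and the later levels were 4.38-fold (4.33 to 4.43) and 40.1-fold (38.7 to 41.7) lower. Its rank was 13, 43 and 126 at PD50, PD55 and PD60. So the hairpins that held ranks 1 and 2 at PD40, both against EP300, ended at 356 and 35190 CPM.

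The other 5 EP300 hairpins have neighbouring catalogue numbers, TRCN0000039883 to TRCN0000039887, and all were over 37-fold lower at PD60 than at PD40. TRCN0000039885 had 9816, 11291, 6192, 1157 and 147 tags at the 5 times, so it stayed within 2-fold of its start until PD50. TRCN0000039887 had 8343, 4060, 3190, 1699 and 211 tags. At PD60 these hairpins were 64.0-fold (54.4 to 75.9) and 37.9-fold (33.1 to 43.7) below PD40, against a library median log2 change of -5.86; their own were -5.92 and -5.19.

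The remaining 3 were nearly gone by PD60, with 1 tag each. TRCN0000039884 had 3404, 828, 169, 51 and 1 tags. TRCN0000039883 had 942, 135, 20, 8 and 1 tags. TRCN0000039886 had 895, 69, 5, 0 and 1 tags. All 3 were at least 4-fold below PD40 by PD45: the ratios were 0.239 (0.221 to 0.258), 0.141 (0.117 to 0.169) and 0.0757 (0.0584 to 0.0968). Their PD60 ratios rest on 1 tag and are imprecise, as for TRCN0000039884, which was 3264-fold lower with an interval from 585.4 to 128900. Its log2 change of -8.46 exceeded that of 2.57% of hairpins. For a hairpin with few tags at PD40 the fold is limited by depth, since 1 tag was 0.121 CPM at PD60.

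Counted over time with log2 of CPM plus 1, and a change of over 2-fold as the call, 0 of 8 EP300 hairpins were higher at PD45 than at PD40 (5.73% of the library) and 4 were lower (63.2%). At PD50 it was 1 higher (4.94%) and 4 lower (81.9%), and at PD55 1 higher (2.92%) and 6 lower (91.7%). At PD60 it was 2 higher (2.28%) and 6 lower (95.3%). All 8 hairpins had at least 10 tags in 1 of the columns compared, the minimum for a call, through their PD40 counts. The median log2 change of the 8 was -0.44, -1.0, -3.10 and -5.62 at the 4 later times in turn, beside -1.63, -3.46, -4.93 and -5.86 over all hairpins. The median EP300 hairpin thus stood 2.46 above the library median at PD50 and 0.24 above it at PD60. Hairpins with a high start fell less at first, and 6 of the 8 were in the highest quintile of PD40 abundance. The medians of that quintile were -0.43, -1.48, -3.65 and -6.21, closer to those of EP300 at PD45, PD50 and PD55 than the library medians. Above the library median were 5 of 8 hairpins at PD45, PD50 and PD55 and 4 of 8 at PD60.

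In this library hairpins that started high more often ended high, and most EP300 hairpins started high. Of the 8, 6 were in the highest quintile of PD40 abundance, where 6.29% of 684 hairpins ended over 2-fold higher; both EP300 hairpins that ended higher were among these 6. The other 2 were in the middle quintile, where it was 1.17%. Among the 50 most abundant hairpins at PD40, 9 (18.0%) were over 2-fold higher at PD60 and 33 over 2-fold lower. EP300 gave 2 of those 50, TRCN0000009884 on the higher side and TRCN0000009883 on the lower. The part of starting level in these outcomes was not tested.

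From step to step, the EP300 hairpins moved apart. Between PD45 and PD50, 1 of 8 was over 2-fold higher (TRCN0000009882; 2.22% of the library) and 3 were lower (71.4%). Between PD50 and PD55, 0 of the 7 with enough tags were higher (1.70%) and 4 were lower (80.8%). Between PD55 and PD60, 1 of 6 was higher (TRCN0000009884; 5.40%) and 5 were lower (73.2%). TRCN0000009882 was on the higher side in the first of these intervals and on the lower side in the last, while TRCN0000009884 was within 2-fold in both earlier ones.

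By the column in which each was highest, 4 EP300 hairpins peaked at PD40, 2 at PD45 (TRCN0000009883 and TRCN0000039885), 1 at PD55 and 1 at PD60. In the library 80.5% of 3418 hairpins were highest at PD40, 12.0% at PD45, 1.70% at PD55 and 1.96% at PD60.

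The summed share of EP300 stayed between 2.53% and 4.35% while the hairpins that made it up changed. It began at 2.80% (2.79% to 2.81%) of tags, was highest in the PD45 column with 4.35% (4.34% to 4.37%), then 3.37% (3.36% to 3.38%) and 2.53% (2.52% to 2.54%), and ended at 3.79% (3.78% to 3.80%), with exact binomial intervals. EP300 ranked 1, 1, 4, 12 and 4 among 631 genes at these times. TRCN0000009883 made up 51.0% of EP300 tags at PD40 and 60.2% at PD45. TRCN0000009882 led at PD55 with 44.8%, just ahead of the 41.3% of TRCN0000009884. At PD60 TRCN0000009884 made up 92.8% and TRCN0000009882 6.11%.

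The PD60 share of EP300 was 1.35 times (1.35 to 1.36) its PD40 share; 52 of 631 genes (8.24%) had a higher share at PD60 than at PD40. This ratio rested on TRCN0000009884. Without it the EP300 share was 1.77% at PD40 and 0.272% at PD60, 6.52-fold lower, and without TRCN0000009882 as well it was 1.70% and 0.0400%, 42.6-fold lower. Without TRCN0000009883 the share was 1.37% at PD40 and 3.76% at PD60, 2.73-fold higher. At PD55 the share of all 8 hairpins was 0.902 of that at PD40 (0.898 to 0.907), so the direction also depended on the end point. For scale, when the hairpin highest at PD60 was left out for every gene in the same way, 3 of 631 genes had a higher share at PD60.

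The 3 EP300 hairpins numbered TRCN0000009882 to TRCN0000009884 differed as a set from the 5 numbered TRCN0000039883 to TRCN0000039887. The first set had 6163 to 123277 tags at PD40 and 2944 to 291065 at PD60. The second had 895 to 9816 tags at PD40 and 1 to 211 at PD60. The ranges overlapped at PD40, where the first set already held 2.53% of tags and the second 0.271%. At the 4 later times they did not overlap, at PD45 only by 11498 against 11291 tags. At these times the first set held 4.17%, 3.26%, 2.50% and 3.79% of tags and the second 0.186%, 0.113%, 0.0253% and 0.00436%. In log2 change at PD60 the sets did overlap, with TRCN0000009883 of the first at -5.32 and TRCN0000039887 of the second at -5.19. This split was made after the values were seen, and it follows catalogue numbers. Whether the numbers correspond to different vector batches or titres was not tested.

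All 5 CREBBP hairpins were over 2-fold lower at PD60 than at PD40, as were 95.3% of the library, and 4 of the 5 lay above the library median change. Of these 4, TRCN0000006485, TRCN0000006488 and TRCN0000006486 had 0 tags at PD60. Their log2 changes of -5.11, -4.70 and -3.42 are bounded by the pseudocount of 1 CPM and their low start. The median of their quintile of PD40 abundance, the lowest, was -4.46. With TMM scaling 2 of the 5 lay above the library median. In 1 of the 5 CREBBP hairpins the level was higher at PD45 than at PD40. TRCN0000006487 had 4167, 13442, 4251, 1464 and 85 tags from PD40 to PD60. Its PD45 level was 3.17-fold above PD40 (3.06 to 3.28), a log2 change larger than that of 98.0% of hairpins, and it went from rank 468 to rank 124. At PD50 the ratio was 1.04 (0.994 to 1.08), back at its start, and at PD55 and PD60 it was 3.80-fold (3.58 to 4.03) and 47.0-fold (37.9 to 59.0) lower. TRCN0000006487 was thus already on its way down when EP300 TRCN0000009882 was still climbing. Other EP300 hairpins went as TRCN0000006487 did: TRCN0000009883 and TRCN0000039885 were also highest at PD45 and lower at each later time.

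The other 4 CREBBP hairpins started low and had 0 tags at PD60. TRCN0000011027 had 519, 48, 7, 3 and 0 tags at the 5 times. TRCN0000006485 had 289, 172, 12, 1 and 0 tags. TRCN0000006488 had 215, 6, 0, 0 and 0 tags, and TRCN0000006486, the least abundant of the 13 at PD40, had 84, 1, 0, 0 and 0. At PD45 TRCN0000006485 was at 0.585 (0.481 to 0.709) of its PD40 level, against 0.0908 (0.0661 to 0.122) for TRCN0000011027 and 0.0274 (0.00995 to 0.0607) for TRCN0000006488.

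With 0 counts raised to a floor of 3 tags in the column, these 4 hairpins were at PD60 at least 165.9-fold, 92.4-fold, 68.7-fold and 26.8-fold lower than at PD40, in the order of their starting tags. The bounds follow that order because the floor is the same for all, 0.363 CPM, so they give no order of loss. In the lowest quintile of PD40 abundance, which held 3 of these hairpins, 84.4% of hairpins had 0 tags at PD60. In the quintile above it, with TRCN0000011027, it was 68.5%. Their absence at PD60 was thus the usual outcome for hairpins that started at this level.

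Counted in the same way as EP300, 1 of 5 CREBBP hairpins was over 2-fold higher than PD40 at PD45 (5.73% of the library) and 3 were lower (63.2%). At PD50 it was 0 higher (4.94%) and 4 lower (81.9%). At PD55 it was 0 higher (2.92%) and 5 lower (91.7%), and at PD60 0 higher (2.28%) and 5 lower (95.3%), which is near the library's own share. The median log2 change was -3.24, -3.84, -4.70 and -5.11 at the 4 later times. At PD45 it was below the library median of -1.63 and at PD60 above that of -5.86. Hairpins with a low start had lower PD45 medians. It was -2.87 in the lowest quintile of PD40 abundance, with 3 of the 5 CREBBP hairpins. In the quintile above, with 1 of them, it was -2.43. The part of starting level was not tested. The PD60 value is limited by the low start of these hairpins, as the pseudocount of 1 CPM bounds the change of TRCN0000006486 at -3.42.

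CREBBP as a sum was carried by TRCN0000006487, with 79.0% of its tags at PD40, 98.3% at PD45 and all 85 at PD60. The summed share was 0.0611%, 0.156%, 0.0504%, 0.0128% and 0.00103% at the 5 times. At PD45 this was 2.55-fold (2.47 to 2.63) above PD40 and at PD60 59.5-fold (48.0 to 74.6) below it. A share higher at PD45 than at PD40 was found for 177 of 631 genes (28.1%), EP300 and CREBBP among them. Without TRCN0000006487 the other CREBBP hairpins held 0.00258% of tags at PD45 and none at PD60.

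Between the paralogs, whose difference was not tested, 8 of 8 EP300 hairpins and 1 of 5 CREBBP hairpins had at least 1 tag at PD60, beside 55.9% of the library; 1 of the EP300 hairpins, TRCN0000039886, had 0 at PD55. At least 10 tags were left for 5 of 8 EP300 hairpins and 1 of 5 CREBBP hairpins, beside 28.6%. EP300 TRCN0000039883, TRCN0000039884 and TRCN0000039886 had 1 tag each. Starting levels differed between the genes. The highest quintile of PD40 abundance held 6 of the 8 EP300 hairpins, and 1.46% of its hairpins had 0 tags at PD60. The lowest held 3 of the 5 CREBBP hairpins, and there it was 84.4%. The hairpins that shared a starting range give the closest comparison: CREBBP TRCN0000006487 began at 483 CPM, between EP300 TRCN0000009882 at 714.4 and TRCN0000039884 at 394.6. These ended at 10.3, 2317 and 0.121 CPM. The CREBBP hairpin lay between both EP300 hairpins at PD60, so these EP300 hairpins differed more from each other than either did from the CREBBP hairpin.

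The genes whose summed share moved most like that of EP300 were MYST1, MEN1 and HDAC1, by the root mean square difference of log2 share over PD40 at 4 later times among 630 genes. The differences were 0.42, 0.42 and 0.44 log2 units. MYST1 is the older name of KAT8, a histone H4 lysine 16 acetyltransferase, MEN1 encodes menin, and HDAC1 encodes a histone deacetylase. MEN1 held 0.608%, 0.920%, 1.10%, 0.735% and 1.10% of tags at the 5 times. It was lower at PD55 than at PD50 and higher again at PD60, as was EP300. Before that they differed: from PD45 to PD50 MEN1 rose, while EP300 fell from 4.35% to 3.37%. The 3 genes were chosen as the nearest, so their likeness to EP300 follows from that choice. MYST1 held 0.530%, 0.614%, 0.716%, 0.654% and 0.497% and HDAC1 0.119%, 0.246%, 0.158%, 0.101% and 0.0947%, and neither was higher at PD60 than at PD55. Closest to CREBBP were NFE2, HILS1 and CHMP4A, at 0.35, 0.43 and 0.45; NFE2 held 0.0760%, 0.168%, 0.0645%, 0.0126% and 0.00201%.

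For single hairpins, the time course of EP300 TRCN0000009884 was most like those of MEN1 TRCN0000040140, MYST2 TRCN0000021631 and GMNN TRCN0000118114, at 0.44, 0.50 and 0.54 log2 units. The MEN1 hairpin had 4686, 7570, 7184, 7943 and 9710 tags. EP300 TRCN0000009882 was most like HIST2H2AB TRCN0000074248, H2AFZ TRCN0000072585 and NSBP1 TRCN0000019876, at 0.34, 0.34 and 0.53. The HIST2H2AB hairpin had 17540, 50920, 174557, 388360 and 59021 tags, also highest at PD55 and lower at PD60. These hairpins, among them ones to a histone H2A and the variant H2A.Z, were chosen as the nearest to TRCN0000009882. That they too climbed to PD55 and dropped at PD60 follows from that choice.

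Other genes of the acetylation pathway were counted from lists, at PD60 over PD40. In the whole library 2.28% of hairpins were over 2-fold higher and 95.3% lower, with a median log2 change of -5.86. The medians of all the lists were near that value. Of 67 hairpins against 13 other acetyltransferases and coactivators, 3 were over 2-fold higher and 64 lower, with a median log2 change of -5.70. ELP3 (-2.80, SD 3.60 over 5 hairpins) and MYST1 (-3.26, SD 4.26) had the highest means, and KAT2B (-6.24, SD 1.03) and CLOCK (-6.32, SD 1.19) the lowest. The means of EP300 and CREBBP were -4.32 (SD 3.87) and -4.92 (SD 0.95), so both lay between these. Of 55 hairpins against 11 histone deacetylases and their corepressor partners, 2 were higher and 52 lower, with a median of -5.90. RCOR1 (-3.75) and SIRT1 (-4.22) were highest there and SIRT6 (-6.63) and SIN3A (-7.15) lowest.

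For 6 genes of enhancer histone methylation and its partners, 0 of 27 hairpins were higher and 27 lower, with a median of -5.88 and CARM1 at -4.48, MLL3 at -4.95, MLL2 at -6.15 and PAXIP1 at -7.00. For 12 transcription factors and regulators that bind p300 or CBP, 2 of 72 hairpins were higher and 68 lower, with a median of -5.56. MAF (-3.03) and CREB1 (-3.70), the factor for which CBP is named, were the highest, and RB1 (-5.91) and ATF2 (-6.37) the lowest. Beside 2 of 8 for EP300 and 0 of 5 for CREBBP, hairpins over 2-fold higher made up 0% to 4.48% of these lists and 2.28% of the library. These are shares of many genes. Of single listed genes, CREB1 had 1 of 4 hairpins higher, ELP3, MYST1, SIRT1, HDAC2 and MAF 1 of 5 each, and MYST2 1 of 7. No other listed gene had any. In the highest quintile of PD40 abundance, with 6 of the 8 EP300 hairpins, the share was 6.29%.

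Directions depended on what the counts were scaled to. All values above are relative to the column total. Scaled by TMM factors, which set the change of the typical hairpin nearer to 0, the median hairpin was at -1.84 in place of -5.86, a shift of 4.02. In the library 18.8% of hairpins were then over 2-fold higher and 64.4% lower. EP300 had 4 hairpins higher and 3 lower, and CREBBP 1 higher and 4 lower. TRCN0000009883, TRCN0000039885, TRCN0000039887 and CREBBP TRCN0000006487 changed sign, to 1.52, 0.84, 1.59 and 1.28. TRCN0000009884 and TRCN0000009882, at 7.63 and 7.56 log2 units above the library median with total counts, were higher at PD60 under both scalings. This had to be so. The TMM factors were 8.94 at PD40 and 0.0777 at PD60, which raises the ratio of every hairpin, so a hairpin already higher could not become lower.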

How the data were processed

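The deposited table gives whole-number counts, per the file headers tags per hairpin, with a single column for each population doubling. The submitters' processing notes name Bowtie 1.0.1. The sources used here do not give its settings or how plates were joined, so each column was used as the authors' pooled value. The 50 samples were grouped by the doubling in their labels.

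Counts were scaled to CPM by column totals. Log2 changes used CPM plus a pseudocount of 1, for hairpins with at least 10 tags in either column. Zeros were raised to 3 tags for bounds. Tags were PCR products without molecular identifiers, so 95% intervals (Poisson, conditional exact) cover counting error only. They were run on simulated Poisson counts without low starting levels. That checks the calculation only, because the simulated error was the error the intervals assume. A fold over 2 was a call. Python 3.11.15, scipy 1.17.1, edgeR 4.0.16 (TMM factors only) and DESeq2 1.42.0 (size factors only) were used. No trend test was run: with 5 pooled columns its error would be departure from a line.

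The hairpins and lists were chosen with earlier results of these data known. All 13 hairpins are named, then the 3 nearest genes or hairpins by time course and, for each list, the 2 genes at either end by mean, with at least 3 hairpins each. A list that the rule took is not reported here. No sequences of the hairpins were used here.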

Additional observations from a re-analysis of the deposited data

How the results depend on the processing

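No paired analysis was possible because the table joins the 10 plates in each column. All intervals cover counting error only, and at PD60 hairpins with 1 tag or none are bounded by depth. Causes of these changes were not tested, except that other end points compare other columns. With TMM scaling, where 18.8% of all hairpins were higher and 64.4% lower, EP300 had 4 hairpins higher and 3 lower, a mean of 1.54 and a log2 summed share change of 7.28, and CREBBP 1 higher, -1.38 and 0.95; with DESeq2's size factors (19.3% and 64.7% of all hairpins) these were 4, 3, 1.56 and 7.34, and 1, -1.51 and 1.01. With DESeq2's size factors TRCN0000009883, TRCN0000039887, TRCN0000039885 and TRCN0000006487 changed sign to 1.58, 1.65, 0.90 and 1.34, after 1.52, 1.59, 0.84 and 1.28 with TMM. Without the 50 most abundant hairpins in the total, the summed changes were 2.83 for EP300 and -3.50 for CREBBP, against 0.44 and -5.89; with a pseudocount of 10 the CREBBP mean was -2.46 against -4.92. With PD45 as the end point EP300 had 0 hairpins higher and a summed change of 0.64, and CREBBP 1 higher, 3 lower, a mean of -1.91 and 1.35; TRCN0000009883, TRCN0000039885 and TRCN0000006487 were at 0.87, 0.18 and 1.66. With PD50, EP300 had 1 higher and 0.27, CREBBP a mean of -3.39 and -0.28, and TRCN0000006487 0.05. With PD55, EP300 had 1 higher and -0.15, and CREBBP -2.26. With the late over the early mean, EP300 had 1 higher and -0.18, and CREBBP a mean of -3.97 and -3.97. Leaving out each hairpin in turn gave EP300 1 to 2 higher, 5 to 6 lower, a mean of -5.20 to -3.73 and a summed change of -2.71 to 1.45, the lowest without TRCN0000009884. For CREBBP it gave 0 higher, 4 lower, a mean of -5.29 to -4.66 and a summed change of -8.47 to -5.75, the lowest with 0 tags raised to the floor without TRCN0000006487. The filter at 0 or 100 tags and a pseudocount of 0.5 left all counts and means for both genes within 1.5 times or 1 SD over hairpins.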
